A study of Mus musculus with 9 samples.

Results

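Described here are 7 genes that act when lymphocytes leave or stay in a tissue: S1pr1, S1pr4, Klf2, Ccr7, Cd69, Rgs1 and Rgs2. They were chosen by name, as the probe sets whose platform gene symbol is a member, out of 19752 genes with a probe set of a single symbol. Each of the 7 genes had 1 probe set, no probe set with several symbols held a member, and all 7 passed the filter on dim probe sets described below. The cells were innate lymphoid cells (ILCs) of mouse skin, lymphocytes without rearranged antigen receptors. They came from female B6 mice that all carried EGFP at 1 Ccr10 allele, so that GFP reports the chemokine receptor CCR10, and the sort took CD45.2+ cells that stained for neither CD3 nor a panel of lineage markers. The groups were Rag1-/- GFP+ (2 arrays), Rag1-/- GFP- (3 arrays), Rag1-sufficient GFP+ (2 arrays) and Rag1-sufficient GFP- (2 arrays). Rag1 is the recombinase that T and B cells need to assemble their receptors, so Rag1-/- mice lack both. The labels give no age and do not say whether arrays of a group came from separate animals, so each p-value reflects the spread among arrays alone, and that spread may be technical.

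Lymphocytes leave a tissue by following sphingosine-1-phosphate (S1P), a lipid that is abundant in blood and lymph and scarce inside tissue, through the receptor encoded by S1pr1. The transcription factor KLF2 drives S1pr1, while the surface protein CD69 binds the receptor and takes it off the membrane. CCR7 guides cells towards lymphatic vessels and lymph nodes. RGS1 switches off G protein signals downstream of such receptors, while its relative RGS2 acts on G proteins of the q class. In many tissue-resident lymphocytes S1pr1 and Klf2 are low while Cd69 and Rgs1 are high.

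Each array gave 1 intensity per probe set, on a linear scale without detection calls. Array medians lay between 74.1 and 77.6 and replicates of a group had rank correlations from 0.981 to 0.992. The leukocyte gene Ptprc read 1052 to 1705 and the ILC genes Id2 6727 to 7905, Il7r 2566 to 3806 and Thy1 3121 to 5227 over all 9 arrays. Rag1-/- GFP+ replicate 1 stood apart from replicate 2 of its group: the mast cell protease gene Cpa3 read 2085 against 19.9, and the CD3 chain gene Cd3e 763 against 1981. The pairwise S1pr1 differences that use these 2 arrays are given with and without each of them. So are, among other genes, Xcl1, Cd80, Ccr4 and the KLF count in Rag1-/- mice. Differences are on the log2(intensity + 1) scale with their SE, from limma fitted on the 17445 probe sets that passed the filter (a mean near or above 41.6 intensity units), and were called at a Benjamini-Hochberg adjusted p under 0.05. Levels of different genes are not compared, since each probe set has its own brightness.

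S1pr1 was the gene of the set that differed most between groups, and its transcript was lower in every Rag1-/- array than in every Rag1-sufficient array. It read 72.5 and 95.8 intensity units in Rag1-/- GFP+ cells and 73.1, 76.4 and 73.7 in Rag1-/- GFP- cells. In Rag1-sufficient mice it read 175 and 255 in GFP+ cells and 118 and 114 in GFP- cells. The 5 Rag1-/- arrays thus spanned 72.5 to 95.8 and the 4 Rag1-sufficient arrays 114 to 255, without overlap. Of all tested probe sets 1.66% were lower in this way on every Rag1-/- array. Its highest array was 3.52 times its lowest, whereas the same ratio was between 1.33 and 1.47 for the other 6 genes. The Rag1-/- values of S1pr1 lay near the array medians of 74.1 to 77.6. Without detection calls it is not known how far they stood above background, so fold differences of this gene are approximate.

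**Figure D1:**
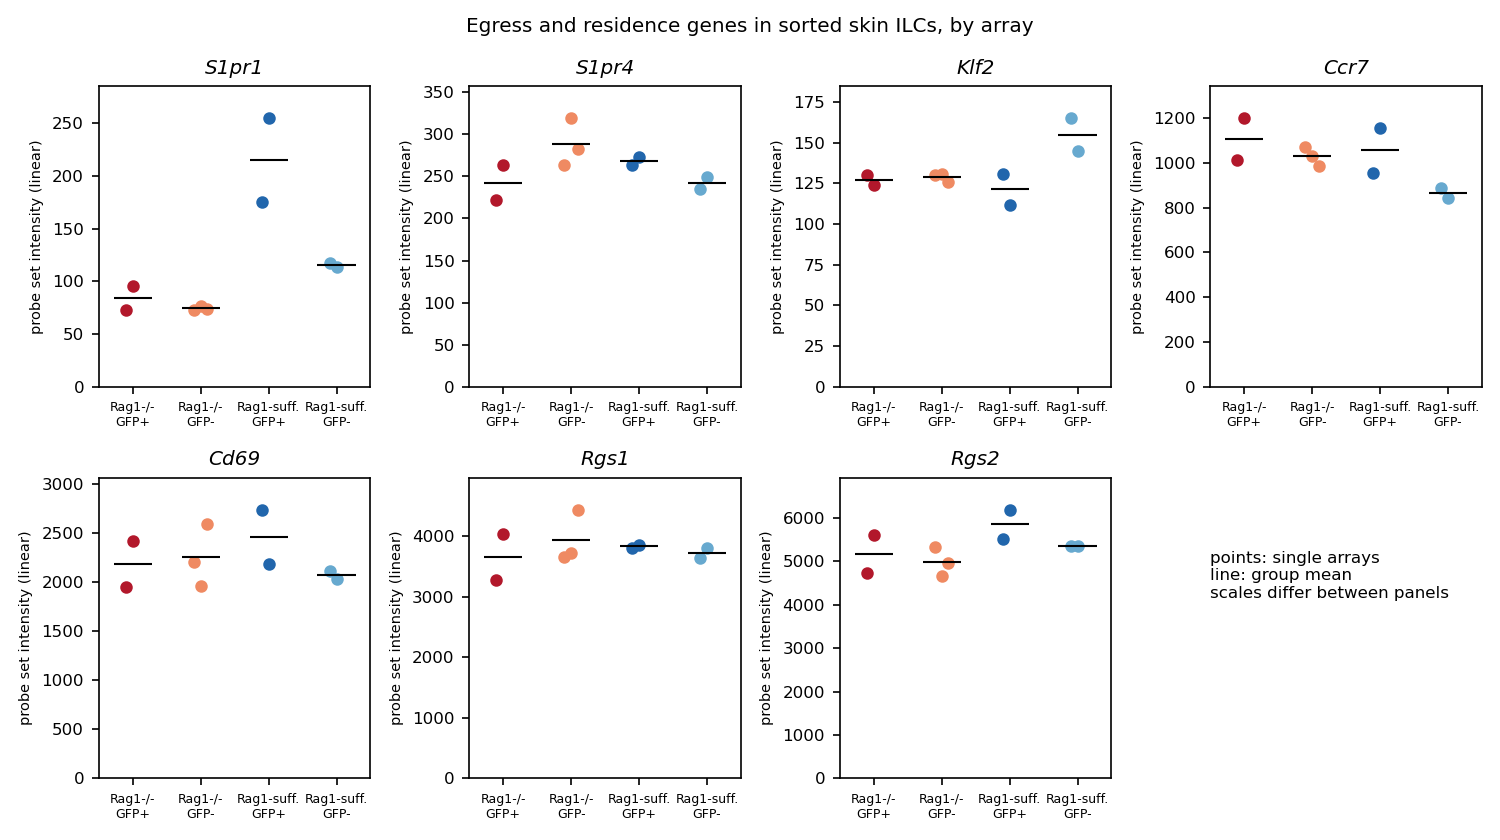
Intensity of the 7 genes (vertical axes, linear, starting at 0, scales differ) on each of the 9 arrays, by group, with the group mean as a line. S1pr1 lies between 175 and 255 in Rag1-sufficient GFP+ cells and below 119 elsewhere, while the other genes span at most 1.47-fold.

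Among GFP+ ILCs, S1pr1 was the only member called. It averaged 84.1 ± 16.4 intensity units in Rag1-/- cells and 215 ± 56.8 in Rag1-sufficient cells (SD, n = 2 each). It fell by 1.33 ± 0.18 on the log2 scale (limma adjusted p = 0.0320), a level 0.397 times that of Rag1-sufficient cells. So 1 of 7 members was called, where 0.246% of all tested probe sets were called, 0.195% were called lower and 6.82% had an unadjusted p under 0.05. The call was fragile: the difference kept its sign in all 17 alternative settings, between -1.60 and -1.06, but passed the threshold in 3 of them. Without Rag1-/- GFP+ replicate 1 the difference was -1.13 (limma adjusted p = 0.155), and without replicate 2 it was -1.53 (limma adjusted p = 0.0289). Without Rag1-sufficient GFP+ replicate 1 it was -1.60 (limma adjusted p = 0.0687), and without replicate 2 it was -1.06 (limma adjusted p = 0.207). Leaving out any of the 5 GFP- arrays, which only share the estimate of the spread, left -1.33 with adjusted p-values from 0.0649 to 0.0973. With the replicate number as a block the limma adjusted p was 0.0804, and with only the 4 GFP+ arrays in the fit it was 0.667.

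**Figure D2:**
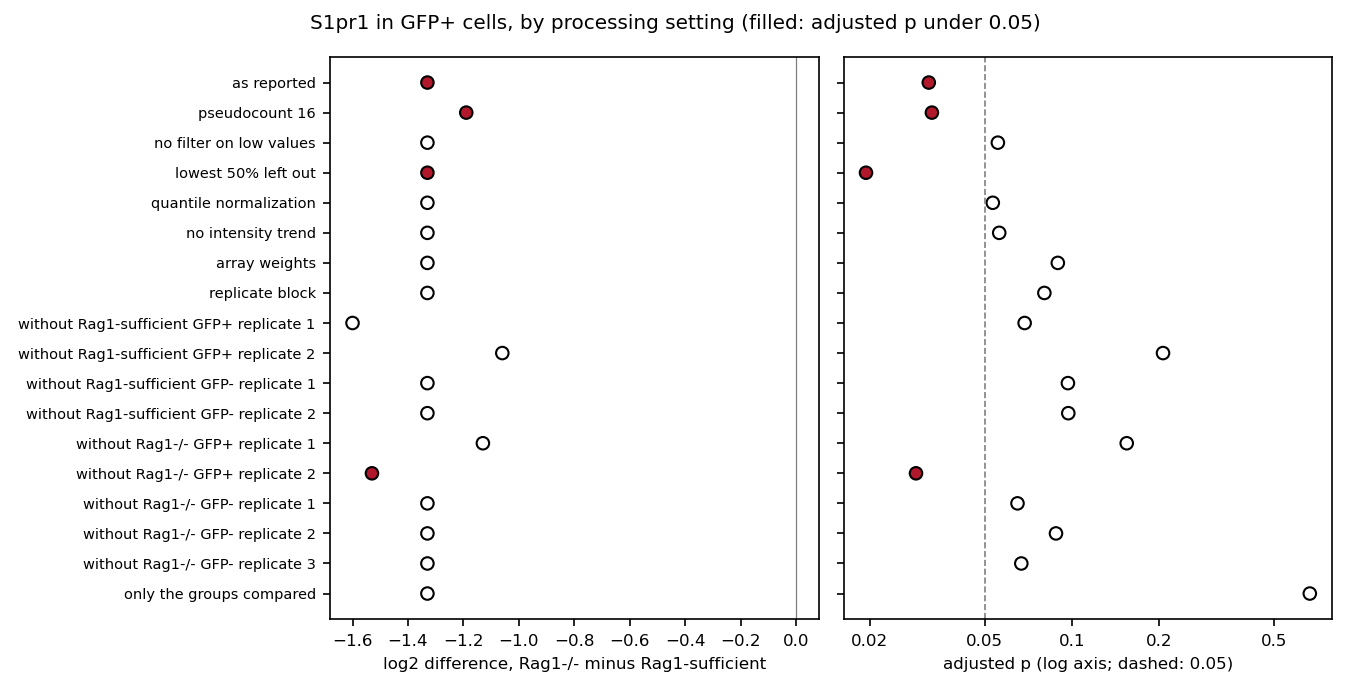
The S1pr1 difference between Rag1-/- and Rag1-sufficient GFP+ cells (left, log2) and its adjusted p (right, log axis, dashed line at 0.05) as reported and in 17 alternative settings, with filled points where the p is under 0.05. The difference stays between -1.60 and -1.06, and the adjusted p runs from 0.0194 to 0.667.

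Among GFP- ILCs, S1pr1 averaged 74.4 ± 1.76 intensity units in Rag1-/- cells (SD, n = 3) and 116 ± 3.09 in Rag1-sufficient cells (SD, n = 2). The groups did not overlap, and the difference of -0.63 ± 0.17 missed the threshold (limma adjusted p = 0.164). Array weights, which give the Rag1-sufficient GFP- arrays the most influence, put the same comparison at -0.62 with an adjusted p of 0.0410.

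The CCR10 reporter gate separated S1pr1 in Rag1-sufficient mice by 0.86 ± 0.18, again without overlap and short of the threshold (limma adjusted p = 0.0915; 0.0124 with array weights). In Rag1-/- mice the gate difference was 0.16 ± 0.17 with overlapping arrays (limma adjusted p = 0.768). It rested on GFP+ replicate 2, at 95.8, and was -0.04 without that array and 0.36 without replicate 1. The interaction, the gate difference in Rag1-/- minus that in Rag1-sufficient mice, was -0.70 ± 0.25 (limma adjusted p = 0.304), so a difference between the genotypes in the gate effect was not established. With an array left out it ran from -0.97 to -0.43. Ordered by mean, S1pr1 was highest in Rag1-sufficient GFP+ cells, then Rag1-sufficient GFP-, Rag1-/- GFP+ and Rag1-/- GFP- cells. The first of these groups differed from the third by the call above. Of the neighbours in the order, the first pair and the last pair missed the threshold, and the middle pair, which differs in both genotype and gate, was not tested.

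**Figure D3:**
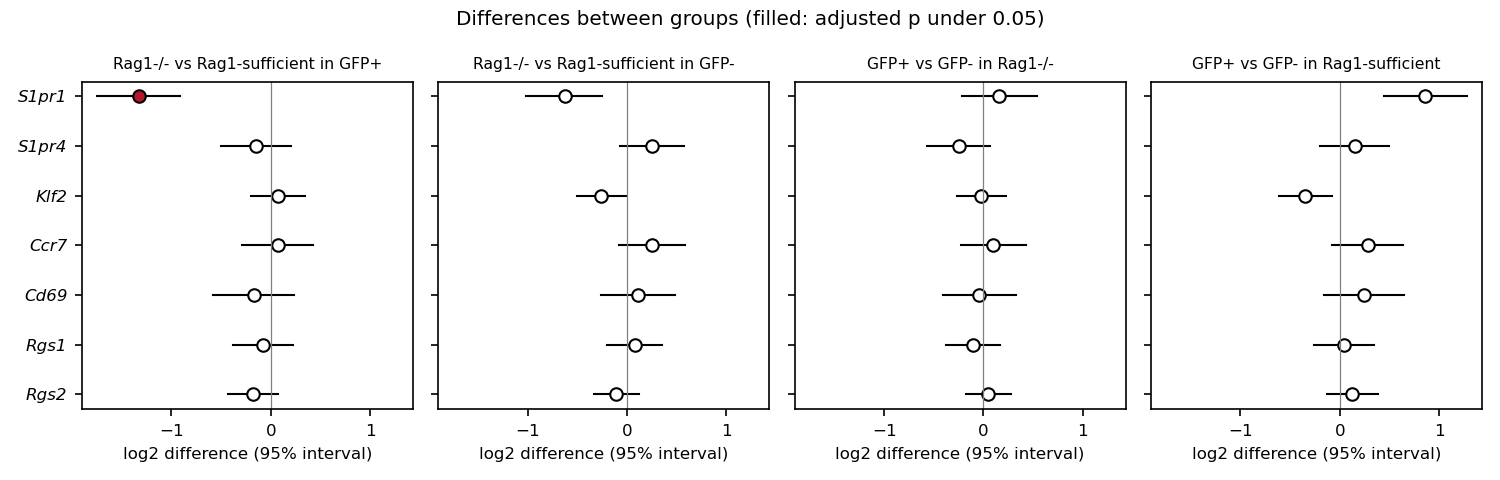
Log2 differences of the 7 genes with 95% intervals (horizontal axes) in the 4 pairwise comparisons, with a filled point where the adjusted p is under 0.05. Only S1pr1 between Rag1-/- and Rag1-sufficient GFP+ cells is filled, at -1.33 with an interval from -1.75 to -0.91.

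Markers of other cells moved along with some of these comparisons, and their part in the S1pr1 result was not tested. The 10 of 16 T cell markers on the array, genes of cells that also use S1pr1 to leave tissue, summed to 3544 to 6640 intensity units in Rag1-/- GFP+ and 4659 to 6945 in Rag1-/- GFP- arrays. In Rag1-sufficient mice they summed to 2676 to 3077 in GFP+ and 2128 to 2147 in GFP- arrays. Between genotypes the sum was thus higher where S1pr1 was lower, whereas between the gates of Rag1-sufficient mice both were higher in GFP+ arrays. The sum was carried by Cd3g (1831 to 4859 in Rag1-/- and 891 to 1767 in Rag1-sufficient arrays) and Cd3e (763 to 1981 and 157 to 270), while Cd28 ran the other way (68.3 to 154 and 210 to 312). Rag1-/- mice lack T cells and the sort left out cells stained for CD3, so what the sum measures there is not known. Which cells held these transcripts was not tested. Of the 9 T cell genes tested, 5 had a positive difference between Rag1-/- and Rag1-sufficient GFP+ cells, with Cd3e called (2.68, limma adjusted p = 0.0419), and 6 between GFP- cells with 0 called. The Cd3e call rests on 2 Rag1-/- GFP+ arrays that differed, at 763 and 1981, and is given as fitted only. The 9 keratinocyte markers moved as S1pr1 did between genotypes: they summed to 784 to 927 in Rag1-/- GFP+ against 1344 to 1368 in Rag1-sufficient GFP+ arrays, and to 833 to 1328 in Rag1-/- GFP- against 1519 to 2997 in Rag1-sufficient GFP- arrays. Of 8 keratinocyte genes tested, 7 had a negative difference among GFP+ cells (median -0.69) and 8 among GFP- cells (median -0.98), with 0 called. At the gate in Rag1-sufficient mice the keratinocyte sums were lower in GFP+ arrays, where S1pr1 was higher. The keratinocyte genes tested had a median difference of -0.65 at that gate, with 0 positive and 0 called. The 7 NK cell markers summed to 368 to 729 in Rag1-/- GFP+ and 405 to 579 in Rag1-/- GFP- arrays, against 312 to 329 in Rag1-sufficient GFP+ and 292 to 328 in Rag1-sufficient GFP- arrays. The 3 NK genes tested had medians of 0.85 and 0.75 between genotypes among GFP+ and GFP- cells, with 0 called, and the NK genes Klrb1c and Gzma stayed under 41.6 on every array. Of the 3 tested, 2 had a positive difference among GFP+ cells and 3 among GFP- cells. Klrd1 (46.9 to 281 in Rag1-/- and 24.8 to 37.5 in Rag1-sufficient arrays) and Prf1 (142 to 258 and 101 to 113) were higher in Rag1-/- mice. Gzmb ran the other way among GFP+ cells, at 66.5 and 59.5 in Rag1-/- against 71.6 and 98.9 in Rag1-sufficient arrays. The 11 endothelial markers, genes of vessel cells that carry S1pr1 and Klf2, summed to 748 to 860 in Rag1-/- GFP+ against 739 to 790 in Rag1-sufficient GFP+ arrays, ranges that overlap. Among GFP- arrays they summed to 618 to 773 in Rag1-/- and 847 to 950 in Rag1-sufficient mice, lower in Rag1-/- as S1pr1 was. Of the 8 endothelial genes tested, all 8 had a negative difference there and 0 were called, and Tek stayed under 41.6 on every array. The 6 B and plasma cell markers summed to 345 to 353 in Rag1-/- GFP+ and 297 to 339 in Rag1-/- GFP- arrays. In Rag1-sufficient mice they summed to 363 to 365 in GFP+ and 357 to 358 in GFP- arrays. Of the 3 tested, 2 had a positive difference between genotypes in GFP+ and 1 in GFP- cells, with 0 called. Macrophage and monocyte sums were lower in Rag1-/- mice too, at 450 to 475 against 480 to 481 in GFP+ arrays. In GFP- arrays they were 437 to 481 against 552 to 620. The 13 mast cell markers summed to 1475 to 5046 in Rag1-/- GFP+ and 4967 to 6310 in Rag1-/- GFP- arrays, against 1025 to 1133 in Rag1-sufficient GFP+ and 10805 to 11001 in Rag1-sufficient GFP- arrays. At the gate in Rag1-sufficient mice all 10 mast cell genes tested had a negative difference (median -2.17) and 8 fell. The 12 dendritic and Langerhans cell markers, genes of cells that carry Ccr7 when they migrate, summed to 2739 to 4196 and 3308 to 3428 in Rag1-/- GFP+ and GFP- arrays, against 5152 to 5881 and 5387 to 7104 in Rag1-sufficient GFP+ and GFP- arrays. These sums were carried by the invariant chain gene Cd74 and the MHC class II genes H2-Ab1 and H2-Aa. Which cells held those transcripts was not tested. Of the 9 dendritic cell genes tested, 4 had a positive difference between Rag1-/- and Rag1-sufficient GFP+ cells (0 called) and 3 between GFP- cells, where the chemokine receptor gene Xcr1 fell (-0.72, limma adjusted p = 0.0125). Xcr1 fell at the gate in Rag1-sufficient mice too (-0.78, limma adjusted p = 0.00843). It read 68.2 and 65 on the Rag1-sufficient GFP- arrays and 38.2 to 42.9 on all others, around the filter limit. In such sorted bulk samples, fewer cells of a type and less RNA per cell cannot be told apart.

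Klf2, the activator of S1pr1, did not follow the S1pr1 pattern. It read 130 and 124 intensity units in Rag1-/- GFP+ and 130, 131 and 126 in Rag1-/- GFP- cells, against 131 and 112 in Rag1-sufficient GFP+ and 165 and 145 in Rag1-sufficient GFP- cells. Its highest values were on the Rag1-sufficient GFP- arrays, and the other 7 arrays lay within 112 to 131. The gate difference in Rag1-sufficient mice was -0.35 ± 0.12 (limma adjusted p = 0.260; 95% interval -0.61 to -0.08), opposite in sign to that of S1pr1. Among GFP- cells the difference between Rag1-/- and Rag1-sufficient mice was -0.26 ± 0.11 (limma adjusted p = 0.271), and among GFP+ cells it was 0.07 ± 0.12 (limma adjusted p = 0.960). Over the 9 arrays Klf2 and S1pr1 had a Pearson r of -0.21, given as a description of arrays that share 4 groups.

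S1pr4, the second S1P receptor of the set, is carried by lymphocytes and other blood cells. It read 222 and 263 in Rag1-/- GFP+, 263, 319 and 283 in Rag1-/- GFP-, 263 and 273 in Rag1-sufficient GFP+ and 235 and 249 in Rag1-sufficient GFP- cells. Among GFP- cells all 3 Rag1-/- arrays lay above both Rag1-sufficient arrays, the opposite order to S1pr1, with a difference of 0.25 ± 0.14 (limma adjusted p = 0.380). The gate difference was -0.25 ± 0.14 in Rag1-/- and 0.15 ± 0.15 in Rag1-sufficient mice, and the interaction of -0.40 ± 0.21 missed the threshold (limma adjusted p = 0.423). The deposited value was exactly equal on 3 arrays of 3 groups (263), so small differences of this gene are coarse.

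Ccr7, the receptor for lymph node chemokines, was read on every array between 842 and 1199. Its values were 1014 and 1199 in Rag1-/- GFP+, 1072, 1029 and 987 in Rag1-/- GFP-, 954 and 1156 in Rag1-sufficient GFP+ and 888 and 842 in Rag1-sufficient GFP- cells. The Rag1-sufficient GFP- arrays were the 2 lowest. The differences that use this group were 0.28 ± 0.16 for the gate (limma adjusted p = 0.534) and 0.25 ± 0.14 for Rag1-/- against Rag1-sufficient cells (limma adjusted p = 0.390), and they share those arrays. Ccr7 and Klf2 ran in opposite order over the 9 arrays, with a Pearson r of -0.79.

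Cd69 encodes the surface protein that retains lymphocytes by removing the S1P receptor. It read 1945 and 2421 in Rag1-/- GFP+, 2201, 1962 and 2591 in Rag1-/- GFP-, 2737 and 2186 in Rag1-sufficient GFP+ and 2110 and 2029 in Rag1-sufficient GFP- cells. Replicates within 3 of the groups differed by as much as the group means did. The largest of its pairwise differences was 0.24 ± 0.18, for the gate in Rag1-sufficient mice (limma adjusted p = 0.666).

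Rgs1, a brake on chemokine receptor signals that marks many resident lymphocytes, read 3282 and 4031 in Rag1-/- GFP+, 3655, 3726 and 4439 in Rag1-/- GFP-, 3809 and 3862 in Rag1-sufficient GFP+ and 3642 and 3810 in Rag1-sufficient GFP- cells. All groups overlapped, and its pairwise differences ran from -0.11 ± 0.12 to 0.08 ± 0.12. Rgs2, a relative that acts on G proteins of the q class, read 4732 and 5606 in Rag1-/- GFP+, 5339, 4654 and 4974 in Rag1-/- GFP-, 5514 and 6193 in Rag1-sufficient GFP+ and 5359 on both Rag1-sufficient GFP- arrays. That tie gives a spread of 0 in the last group and understates its error. The Rgs2 difference between Rag1-/- and Rag1-sufficient GFP+ cells was -0.18 ± 0.11 (limma adjusted p = 0.823). In gene order Rgs13 lies between Rgs2 and Rgs1, with Rgs21 and Rgs18 beyond Rgs1. In this cluster Rgs13 (14.8 to 19.0) and Rgs21 (15.4 to 18.4) stayed under the filter on every array, while Rgs18 ran from 201 to 781.

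For the 6 members other than S1pr1, the 24 pairwise differences lay between -0.35 and 0.28 and their adjusted p-values between 0.260 and 0.969. All 24 95% intervals lay within -0.61 and 0.65, so for these genes a 2-fold change lies outside the interval in each comparison; this does not show that the groups are equal. Signs of the smaller differences were not stable: under quantile normalization those of Rgs1 turned in all 4 pairwise comparisons. Members called numbered 0 for the gate in Rag1-sufficient mice by limma (2 at an unadjusted p under 0.05), where 0.803% of probe sets were called and 13% had an unadjusted p under 0.05. The count was 0 for the gate in Rag1-/- mice (0 unadjusted), where 0% of probe sets were called (6.29% unadjusted). It was 0 for Rag1-/- against Rag1-sufficient GFP- cells (2 unadjusted), where 0.143% were called (17.3% unadjusted), and 0 for the interaction (1 unadjusted), where 0% were called (13.6% unadjusted). Groups did not overlap for 6 of 7 members at the gate in Rag1-sufficient mice, where 50.2% of tested probe sets did not overlap. The same held for 5 of 7 members between Rag1-/- and Rag1-sufficient GFP- cells (40.6% of probe sets), for 1 of 7 between Rag1-/- and Rag1-sufficient GFP+ cells (29.5%) and for 0 of 7 at the gate in Rag1-/- mice (15.4%).

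No other gene of the S1P pathway list passed the threshold as fitted here, although Gnai1 came close. Of 18 tested genes, which include the receptors S1pr2, S1pr3 and S1pr5 and the enzymes that make, export and degrade S1P, 0 were called in any of the 5 comparisons. Between Rag1-/- and Rag1-sufficient GFP+ cells they had a median difference of -0.03, against -0.02 for all tested probe sets. S1pr5, a receptor through which NK cells leave tissue, differed there by -0.14 ± 0.13 (limma adjusted p = 0.915). Its difference was -0.34 without Rag1-/- GFP+ replicate 1 and 0.07 without replicate 2. Gnai1, a subunit of the inhibitory G proteins to which S1P receptors couple, read 92.2 and 62.1 in Rag1-/- GFP+ and 95.5, 71.7 and 106 in Rag1-/- GFP- cells, against 48.9 and 57.7 in Rag1-sufficient GFP+ and 174 and 119 in Rag1-sufficient GFP- cells. Its gate difference in Rag1-sufficient mice was -1.42 ± 0.25 (limma adjusted p = 0.0506), and it passed in 6 alternative settings, with adjusted p-values from 0.00761 to 0.0483. With array weights Plpp3 and the arrestin genes Arrb1 and Arrb2 passed as well, Arrb1 between GFP- cells and the others at the gate in Rag1-sufficient mice. Plpp3, a phosphatase that degrades S1P outside cells, had a gate difference of -0.75 ± 0.21 there (limma adjusted p = 0.181). The mast cell markers given above differed at this gate as well, and their part in the Gnai1 and Plpp3 differences was not tested. Of 10 other tested RGS genes 0 were called. Rgs16 (-0.64 ± 0.15, limma adjusted p = 0.126) and Rgs18 (-0.73 ± 0.49, limma adjusted p = 0.617) had the largest differences, both for the gate in Rag1-sufficient mice.

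Genes of the KLF family and other regulators of S1pr1 mostly had the sign of Klf2 at the gate in Rag1-sufficient mice. Of 18 tested, 16 had a negative difference there (46.3% of all tested probe sets did), with a median of -0.24 against 0.01 for all, but 0 were called. The count of negative differences stayed between 14 and 16 in the alternative settings. Klf9 had the largest difference, with 283 and 305 in Rag1-sufficient GFP+ and 483 and 484 in Rag1-sufficient GFP- cells, or -0.72 ± 0.18 (limma adjusted p = 0.132). In Rag1-/- mice 4 of the 18 were negative (52% of all tested probe sets were), with a median of 0.08. That count was not stable: it was 9 without Rag1-/- GFP+ replicate 1 and 3 without replicate 2, and ran from 2 to 10 over the settings, with medians from -0.01 to 0.17. The interaction was positive for 16 of 18 (15 without Rag1-/- GFP+ replicate 1 and 17 without replicate 2), with a median of 0.32 against -0.01 for all and 0 called. Foxo1, which drives Klf2 and S1pr1 in T cells, differed by -0.15 ± 0.26 at the gate in Rag1-sufficient mice (limma adjusted p = 0.900) and by 0.21 ± 0.26 between Rag1-/- and Rag1-sufficient GFP+ cells (limma adjusted p = 0.935).

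Immediate early genes, which cell isolation can induce along with Cd69 and Klf2, mostly had negative differences at the same gate. Of 18 tested, 17 had a negative difference in Rag1-sufficient mice (46.3% of all tested probe sets did), with a median of -0.37. Of the 18, 2 fell, where 0.47% of all tested probe sets were called lower. Jun averaged 476 in GFP+ and 1142 in GFP- cells (-1.26 ± 0.16, limma adjusted p = 0.0119), and Fos 760 and 1435 (-0.92 ± 0.15, limma adjusted p = 0.0337). Leaving out any 1 of the 4 Rag1-sufficient arrays ended both calls, with 3 to 6 probe sets called in all, while the differences stayed between -1.34 and -1.18 for Jun and between -1.06 and -0.78 for Fos. Jun missed the threshold in those 4 of 17 settings and Fos in 7, with adjusted p-values of up to 0.382. At this gate the mast cell markers given above differed too, with sums of 1025 to 1133 in GFP+ and 10805 to 11001 in GFP- arrays, and their part in the immediate early and KLF differences was not tested. In the same comparison Cd69 had a positive difference of 0.24 ± 0.18. In each of the other comparisons 0 of the 18 immediate early genes were called. Negative differences numbered 13 at the gate in Rag1-/- mice (52% of all tested probe sets). Between Rag1-/- and Rag1-sufficient cells they numbered 15 among GFP- cells (49.9%, median -0.26) and 8 among GFP+ cells (55.8%). The interaction was positive for 15 (48.2%). Whether handling of the cells contributed to Klf2 and Cd69 was not tested.

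**Figure D4:**
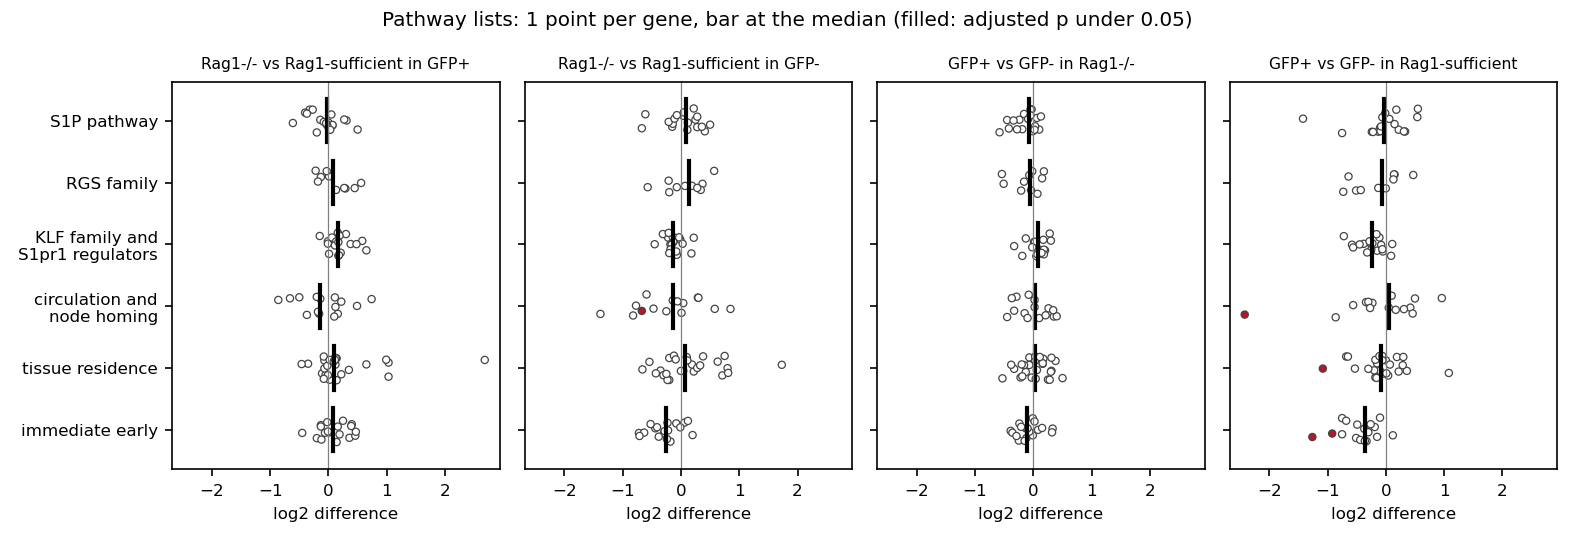
Log2 difference of each tested gene of 6 pathway lists (1 point per gene, bar at the median, filled where the adjusted p is under 0.05) in the 4 pairwise comparisons. The KLF and immediate early lists lie mostly left of 0 for the gate in Rag1-sufficient mice, with medians of -0.24 and -0.37, and 5 points are filled in all.

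Of the other genes of circulation and of residence, 3 were called, and all 3 fell. Of 15 tested circulation and lymph node homing genes, 1 fell at the gate in Rag1-sufficient mice: Itga4, an integrin chain that mediates entry into tissue, at 45.9 in GFP+ and 249 in GFP- cells (-2.42 ± 0.37, limma adjusted p = 0.0256). Between Rag1-/- and Rag1-sufficient GFP- cells, where 0.0917% of all probe sets were called lower, 1 fell: Sidt1, a transmembrane protein of lymphocytes, which read 77.6, 67.8 and 73.3 in Rag1-/- and 113 and 120 in Rag1-sufficient cells (-0.67 ± 0.09, limma adjusted p = 0.0391). Cxcr3, a receptor for interferon-induced chemokines, read 84.5 and 167 in Rag1-/- GFP+ and 80.1, 104 and 96.4 in Rag1-/- GFP- cells, against 237 and 199 in Rag1-sufficient GFP+ and 106 and 116 in Rag1-sufficient GFP- cells. Its brightest arrays were those of S1pr1, and its gate difference in Rag1-sufficient mice was 0.96 ± 0.28 (limma adjusted p = 0.186). Of 26 tested tissue residence genes, 1 fell at that gate: Inpp4b, a phosphoinositide phosphatase, which read 176 and 194 in GFP+ and 393 on both GFP- arrays (-1.08 ± 0.17, limma adjusted p = 0.0261). The mast cell marker sums differed at that gate too, at 1025 to 1133 in GFP+ and 10805 to 11001 in GFP- arrays. Itga4 read 108 and 54 on Rag1-/- GFP+ replicates 1 and 2, where the mast cell gene Cpa3 read 2085 and 19.9. The part of mast cell RNA in the Itga4 and Inpp4b differences was not tested. Each of the 3 calls failed in some settings, Itga4 in 4, Inpp4b in 5 and Sidt1 in 11 of 17. Xcl1, a chemokine of resident lymphocytes, read 457 and 1901 in Rag1-/- GFP+ and 190 and 109 in Rag1-sufficient GFP+ cells (2.68 ± 0.58, limma adjusted p = 0.201). Without Rag1-/- GFP+ replicate 1 its difference was 3.71 (limma adjusted p = 0.0507), and without replicate 2 it was 1.66 (limma adjusted p = 0.109). Itgae, the integrin chain CD103 that binds epithelium, differed by 0.80 ± 0.15 between Rag1-/- and Rag1-sufficient GFP- cells (limma adjusted p = 0.0836). The residence list as a whole had medians between -0.08 and 0.10 in the pairwise comparisons, against -0.02 to 0.01 for all the tested probe sets. Its signs depended on the setting: with quantile normalization 20 of 26 genes were negative at the gate in Rag1-sufficient mice, against 17 as reported, 21 were positive between Rag1-/- and Rag1-sufficient GFP+ cells, and 22 were positive in the interaction. CCR7 ligand genes were measured only for Ccl19, which had no difference past the threshold.

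The genes whose pattern over the 9 arrays was most like that of S1pr1, among 13295 others, were Fam83g (Pearson r = 0.980), the skin-homing receptor gene Ccr4 (r = 0.955) and Cd80, a costimulatory ligand of T cells (r = 0.952). These values describe arrays that share groups and carry no test. Cd80 read 78.9 and 209 in Rag1-/- GFP+ and 93.5, 104 and 102 in Rag1-/- GFP- cells, against 550 and 557 in Rag1-sufficient GFP+ and 196 and 152 in Rag1-sufficient GFP- cells. Ccr4 read 178 and 269, then 240, 220 and 184 in the Rag1-/- groups, against 585 and 602, then 353 and 270 in the Rag1-sufficient groups, each GFP+ first. Both were brightest on the 2 Rag1-sufficient GFP+ arrays, as S1pr1 was. Between Rag1-/- and Rag1-sufficient GFP+ cells Cd80 differed by -2.10 ± 0.37 (limma adjusted p = 0.0894) and Ccr4 by -1.43 ± 0.23 (limma adjusted p = 0.0655). Both depended on the Rag1-/- GFP+ arrays. Without replicate 1 Cd80 differed by -1.40 (limma adjusted p = 0.0572) and Ccr4 by -1.14 (limma adjusted p = 0.225). Without replicate 2 Cd80 differed by -2.79 (limma adjusted p = 0.00328) and Ccr4 by -1.73 (limma adjusted p = 0.0282). Fam83g varied only between 45.3 and 62.7, close to the filter limit.

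**Figure D5:**
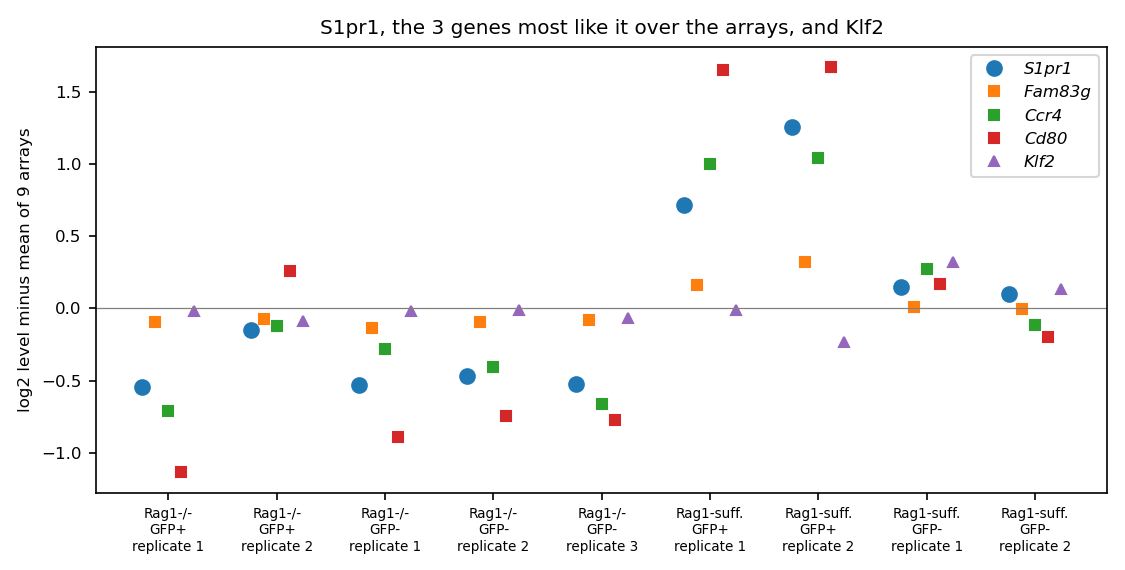
Level of S1pr1, of Fam83g, Ccr4 and Cd80 and of Klf2 on each array, as log2(intensity + 1) minus the mean of the 9 arrays (vertical axis). S1pr1, Ccr4 and Cd80 are highest on the 2 Rag1-sufficient GFP+ arrays, whereas Klf2 is highest on the 2 Rag1-sufficient GFP- arrays.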

How the data were processed

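Total RNA of sorted skin ILCs was hybridised to 1-colour Affymetrix arrays as biotinylated single-stranded DNA, per the labels. The authors deposited 1 linear intensity per probe set and array (24922 probe sets, 9 arrays). MAS5 is named in the submitters' processing notes without a role, and the normalization and the genome build are not given in the sources used here. At least 2 arrays held exactly equal values in 50.0% of the probe sets. Gene names came from the platform annotation, with current symbols and gene order from the GRCm38.p6 table, and the probe set with the highest mean stood for a gene. Intensities were transformed as log2(value + 1), and the dimmest 30% of probe sets by mean log2 value (below about 41.6 units) were dropped. limma 3.58.1 in R 4.3.3 (4 group means, eBayes with trend = TRUE, residual degrees of freedom 5, prior degrees of freedom 3.56) was fitted on all 17445 remaining probe sets, two-sided, with Benjamini-Hochberg adjustment over them. The fit was also run on simulated data with independent noise of equal spread in all groups. That run does not cover equal values or arrays that stand apart, and no result here rests on it. The number of arrays limits the precision.

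The members, the comparisons and the lists were chosen with earlier results of these data known. Named besides the members were list genes past the threshold, up to 2 genes with the largest differences of a list with none, and the 3 genes most correlated with each member. S1pr2, S1pr3, S1pr5, Arrb1, Arrb2, Foxo1, Itgae, Cxcr3, Xcl1 and the single marker genes were named after their values were seen. Alternatives were a pseudocount of 16, no filter or one of 50%, quantile normalization, no trend, array weights, a replicate block, fits on the compared groups alone and leaving out each array.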

Additional observations from a re-analysis of the deposited data

How the results depend on the processing

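Groups of 2 or 3 arrays limit every result, and leaving out an array of a group of 2 leaves a lone array that is assumed to vary like the others. In the comparison of Rag1-/- with Rag1-sufficient GFP+ cells, members called numbered 0, against 1, with no filter, quantile normalization, no intensity trend, array weights, the replicate block or only the groups compared, and 0 to 1 with an array left out. With array weights the count was 1 for the gate in Rag1-sufficient mice and 1 for Rag1-/- against Rag1-sufficient GFP- cells, against 0 each, S1pr1 both times. The cause of these changes was not tested.

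All probe sets called for the gate in Rag1-sufficient mice were 140, against 1290 with array weights, 73 with the replicate block and 3 to 335 with an array left out. For the gate in Rag1-/- mice they were 0, and 0 to 7 with an array left out. For Rag1-/- against Rag1-sufficient GFP+ cells they were 43, against 17 with quantile normalization, 3 with no trend, 2 with the replicate block, 0 with only the groups compared and 1 to 135 with an array left out. For GFP- cells they were 25, against 43 with a pseudocount of 16, 9 with the lowest 50% left out, 1168 with array weights, 6 with the replicate block, 8 with only the groups compared and 1 to 139 with an array left out. For the interaction they were 0, against 1 with the lowest 50% left out, 1 with quantile normalization, 31 with array weights and 0 to 500 with an array left out. The replicate numbers of different groups share only a number: deviations of same-numbered arrays correlated between -0.24 and 0.08, and the block ended the S1pr1 call.

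Quantile normalization turned the sign of small differences: at the gate in Rag1-sufficient mice Rgs1 (-0.10) and Rgs2 (-0.07), at the gate in Rag1-/- mice Klf2 (0.01), Cd69 (0.11) and Rgs1 (0.03), between Rag1-/- and Rag1-sufficient cells Rgs1 in GFP+ (0.01) and Cd69 (-0.09) and Rgs1 (-0.12) in GFP-, and in the interaction Ccr7 (0.11), Cd69 (0.01), Rgs1 (0.13) and Rgs2 (0.23). Cd69 at the gate in Rag1-/- mice also turned with array weights (0.03) and the replicate block (0.06), and Rgs1 between GFP- cells with the block (-0.01). With an array left out, the gate difference in Rag1-/- mice ran from -0.04 to 0.36 for S1pr1, -0.05 to 0.01 for Klf2, -0.02 to 0.22 for Ccr7, -0.20 to 0.11 for Cd69, -0.26 to 0.04 for Rgs1 and -0.07 to 0.17 for Rgs2. Between Rag1-/- and Rag1-sufficient GFP+ cells it ran from -0.05 to 0.18 for Klf2, -0.07 to 0.21 for Ccr7 and -0.22 to 0.07 for Rgs1, between GFP- cells from -0.01 to 0.13 for Rgs1, and in the interaction from -0.20 to 0.05 for Rgs2. S1pr4 turned in no setting.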

Other observations

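The genes most like the other members over the 9 arrays were described by the same Pearson r, with no test. They were Usp30 (0.972), Atp2a3 (0.971) and Akt2 (0.957) for S1pr4, Acot6 (0.994), Bcl2l2 (0.982) and Stxbp6 (0.955) for Klf2, and Ttpal (0.942), Iffo2 (0.935) and Ifi203 (0.923) for Ccr7. Those given for Klf2 rest partly on equal values, with 6 distinct values for Acot6, 5 for Bcl2l2 and 6 for Stxbp6 over the 9 arrays. Acot6 varied only between 79.3 and 96.2, and Bcl2l2 between 45.1 and 51.8, close to the filter limit. For Cd69 they were Pex13 (0.954), Sbds (0.947) and Oma1 (0.943), for Rgs1 Snx6 (0.966), Oxct1 (0.957) and Rab23 (0.955), and for Rgs2 Napa (0.973), Prkx (0.970) and Usp7 (0.969). Prkx, a protein kinase gene, read 1102 and 1680 in Rag1-/- GFP+ and 1635, 1185 and 1203 in Rag1-/- GFP- cells, against 1555 and 2225 in Rag1-sufficient GFP+ and 1570 and 1497 in Rag1-sufficient GFP- cells. Among the members themselves the highest correlation was that of S1pr1 with Rgs2 (0.82), followed by Cd69 with Rgs1 (0.67).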
